A study of Mus musculus with 11 samples.

Results

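The genes of the cytosolic ribosome's own proteins were followed in mouse hippocampal punches after AC-T, a breast cancer chemotherapy of doxorubicin, cyclophosphamide and paclitaxel. Members were taken by name: symbols of the form Rpl or Rps with a number and at most a short suffix, Rplp0, Rplp1, Rplp2 and Rpsa. Symbols containing -ps and the Rps6k kinase genes were left out. This gave 84 of the 17118 genes in the table, 48 of the large and 36 of the small subunit. The reference annotation lists 80 of them as protein coding and 4 as pseudogenes (Rps12l1, Rps3a2, Rps3a3 and Rps4l). The name rule does not take Fau, Rpl36al or Gnb2l1, which encode further ribosomal components, and these are given with the pathway lists.

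The ribosome translates mRNA in the cytosol. Its small subunit decodes the message, and its large subunit joins the amino acids and carries a stalk that recruits the translation factors. The mRNAs of these proteins begin with a pyrimidine run, the terminal oligopyrimidine (TOP) start, through which mTORC1 controls their translation. In neurons a part of the ribosomes sits in dendrites, where local protein synthesis serves synaptic plasticity. Processed ribosomal protein mRNAs have been copied back into the mouse genome many times, so that most of these genes have near-identical retrocopies elsewhere.

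The animals were female C57/BL6J mice, 12 weeks old at the start, given 8 weekly intraperitoneal injections. AC-T mice received 4 injections of doxorubicin (2 mg/kg) together with cyclophosphamide (50 mg/kg), then 4 of paclitaxel (5 mg/kg). Control mice received 0.9% saline. All samples carry a 1-month label, and nothing in the labels ties a replicate number of one group to the other. After AC-T 5 libraries were analysed, from mice 501, 502, 503, 600 and 602. The 6 saline libraries came from mice 201, 202, 203, 300, 301 and 302. Mouse numbers that start with the same digit are called a series below, which gives series 2 and 3 within saline and series 5 and 6 within AC-T. What the digit stands for is not given, and series and treatment cannot be told apart because none of the series holds mice of both groups.

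Library totals were 23.4 to 32.1 M counts (M, mega), and 15353 genes passed the filter on low counts. All 9 hippocampal pyramidal and granule neuron markers were measured, with a summed level of 547 to 785 CPM (counts scaled to a common library size) in saline and 699 to 883 CPM in AC-T libraries. Of these 2 rose (Neurod6, log2 fold change 0.72, and Mpped1, 0.93) and the median was 0.31. Markers of the neighbouring thalamus and habenula moved with treatment: 14 of 16 fell, their summed level was 1432 to 2189 CPM in saline and 761 to 1099 CPM after AC-T. Zfhx3, 1 of these markers, had a listed value of 0 after AC-T throughout. Their mean log2 CPM was 4.49 ± 0.295 (SD, n = 5) against 5.95 ± 0.479 (SD, n = 6, exact permutation p = 0.00433). The list was chosen with earlier results of these data known, so this p only describes the score and is no independent evidence. Of the other marker lists, 1 of 7 for neurons rose (Syt1, 0.33) and 1 of 6 for endothelium fell (Pecam1, -0.21). For astrocytes 2 of 8 fell (Slc4a4, -0.42, and Aqp4, -0.46). Over all genes tested 3.58% fell and 4.89% rose. List medians were 0.19 (neurons), -0.17 (endothelium) and -0.22 (astrocytes). The summed astrocyte level was not lower, at 3553 to 4615 CPM in saline and 3587 to 4928 CPM after AC-T. The summed levels of the neuron and endothelium lists also overlapped between groups. Among 5 blood markers 0 passed in edgeR, 2 had an unadjusted p under 0.05 and the median was -0.79. The part of these markers in the results was not tested. A fit with the thalamic score as a covariate is given below, but the score did not overlap between groups and cannot be told apart from treatment. These are bulk punches, so fewer cells of a type and less RNA per cell cannot be told apart.

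Reads of a ribosomal protein mRNA often match several rows of the table. Each member's main transcript (GENCODE vM21, GRCm38) was cut into words of 31 bases, and a table row whose transcripts held at least 20% of these words was taken as a copy. The share of words found in no other gene was lowest at 0 (Rps12l1) and 1.27% (Rps27), with a median of 42.0%. In all, 73 members had 1 or more copies among 227 rows of the table, and 11 had none. Of these rows 93 carry a -ps symbol, which marks a pseudogene, and 122 a predicted-model (Gm) symbol. Among the other 12 are Flt3l, taken with Rpl13a, and Wdr89, taken with Rplp2, whose symbols are not those of ribosomal protein genes. Wdr89 held a mean of 2793 counts beside 662 at Rplp2, so a family sum can hold counts of other genes.

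The sequences below are from the coding strand and show how close members and their most counted copies are; capitals mark the bases that differ within each pair. Over the 576 coding bases of Rpl9 (chr5:65388364-65391444, minus strand, GRCm38), its copy Rpl9-ps6 (chr19:32465865-32466578, minus strand) differed at 1 base, which lies in the stretch from coding base 236 to 295. Rpl34 (chr3:130726831-130730398, minus strand) and Rpl34-ps1 (chr6:71124610-71124963, plus strand) differed at 2 of 351 coding bases, of which the stretch from base 102 to 161 shows 1.
Rpl9: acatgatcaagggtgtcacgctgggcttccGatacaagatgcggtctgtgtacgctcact
Rpl9-ps6: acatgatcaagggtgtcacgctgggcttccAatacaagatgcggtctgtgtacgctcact
Rpl34: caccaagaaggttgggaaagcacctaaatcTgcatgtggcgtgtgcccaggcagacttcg
Rpl34-ps1: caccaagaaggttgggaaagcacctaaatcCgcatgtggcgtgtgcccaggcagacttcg

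For 2 further members no coding base differed, so the first 60 coding bases are shown once for member and copy. Rps12 (chr10:23785183-23787275, minus strand) is identical over all 396 coding bases to Rps12-ps3 (chr19:59322290-59322783, plus strand). Rps27 (chr3:90212522-90213651, minus strand) is identical over all 252 to Rps27rt (chr9:114982366-114982739, minus strand), an intronless gene annotated as protein coding.
Rps12 and Rps12-ps3: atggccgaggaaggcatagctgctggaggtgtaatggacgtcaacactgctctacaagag
Rps27 and Rps27rt: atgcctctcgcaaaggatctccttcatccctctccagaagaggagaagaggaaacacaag

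In the examples that follow most counts stood at the copies. The row of Rpl9 held a mean of 192 counts per library, and Rpl9-ps6 held 8478. Rps27, a zinc finger protein of the small subunit, held 50.8 counts beside 5104 at Rps27rt. Rps12 had 5.86 counts in AC-T 501, 6.02 in AC-T 600 and a listed 0 in the other 9 libraries, beside a mean of 5649 counts at Rps12-ps3, and was the 1 member that did not pass the low-count filter. Rps13, of the small subunit, held 12.2 counts, with 0 in saline 300, beside 3206 at its copies. Rps12l1 ran from 0 (saline 202 and 300 and AC-T 602) to 159 counts (saline 302). A value at such a row describes the row and not the gene's mRNA as a whole.

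Members and copies that share words form 81 families. The member rows held a median of 21.2% of their family's counts; 54 families had under 50% and 25 had under 10% there. The smallest shares were 0.38% (Rps13), 0.887% (Rps12 with Rps12l1), 0.985% (Rps27), 1.39% (Rpl17) and 1.63% (Rpl9). The 11 families of a single row included Rps3, Rps4l, Rps9, Rps20, Rps24, Rps27l, Rpl7l1, Rpl8, Rpl32 and Rpl39. Copies held more counts than the member at 57 of 84 members.

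**Figure D1:**
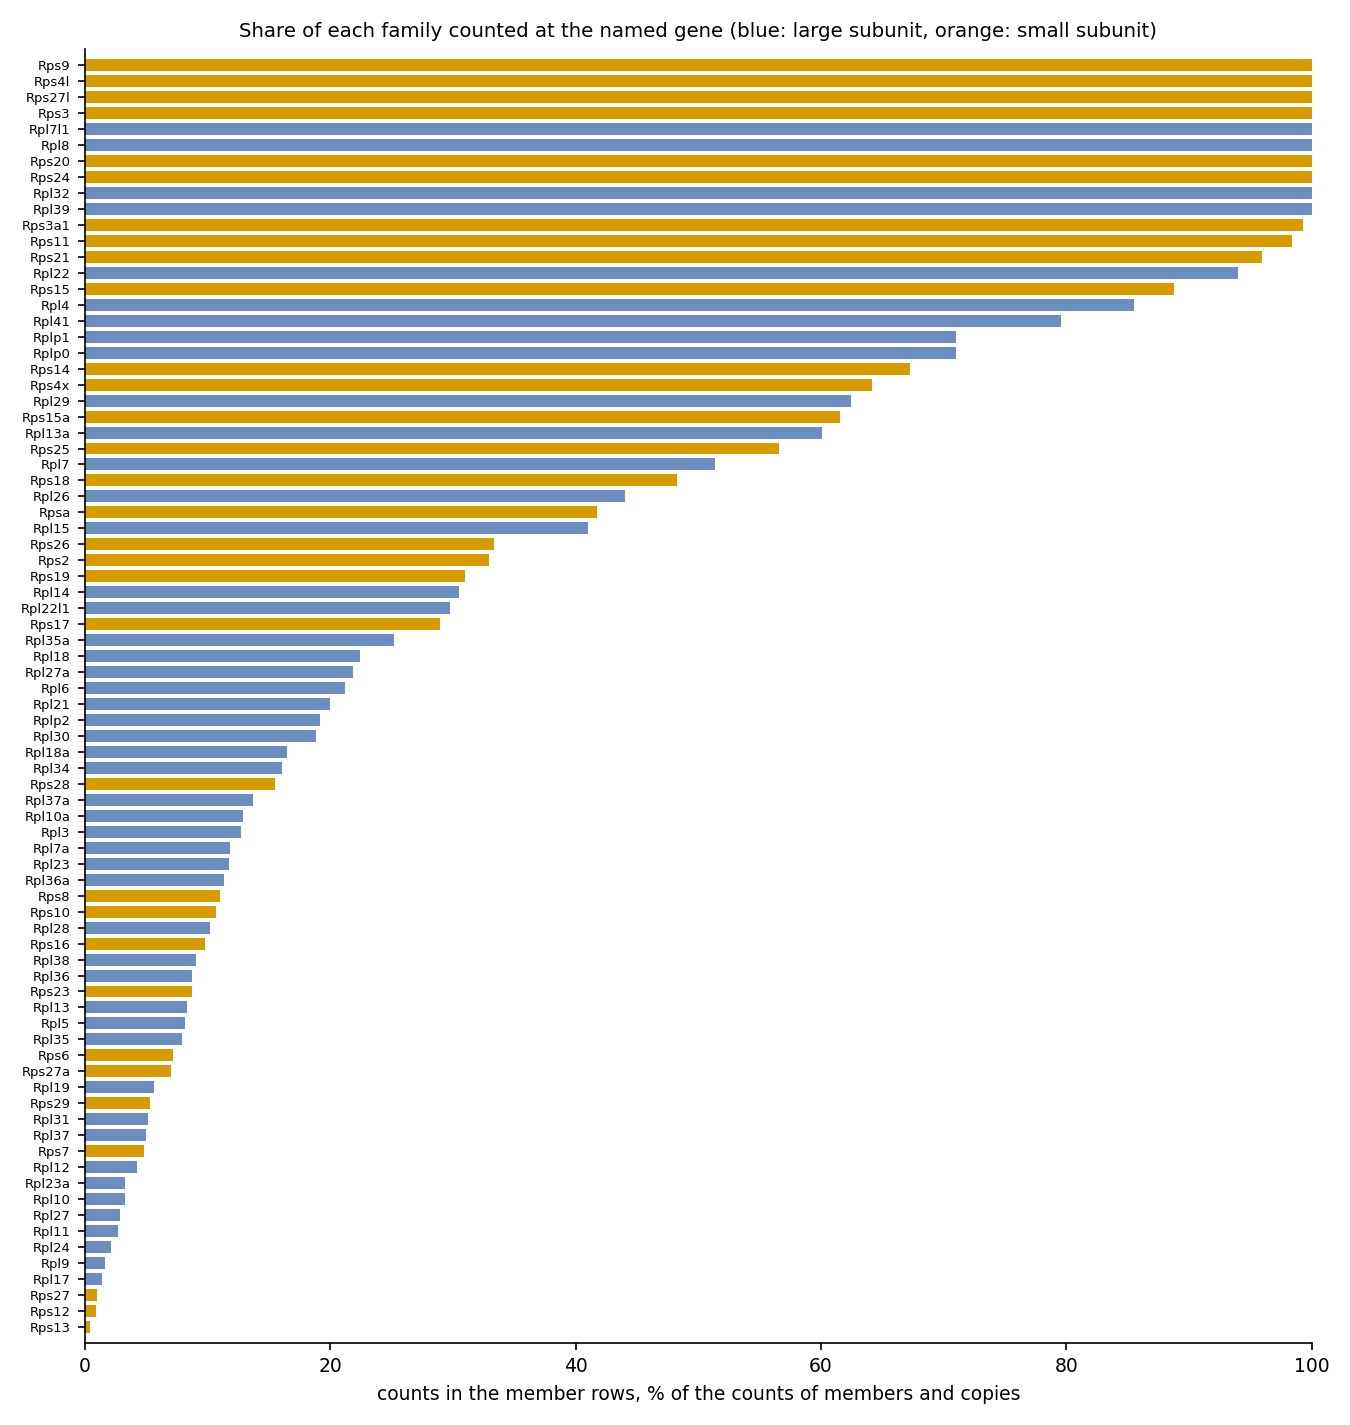
Horizontal bars give, for the families, the percentage of the counts of members and copies that stood at the member rows (x axis, mean over 11 libraries; blue large subunit, orange small subunit); 1 family of a single row is not drawn. The bars run from 0.38% for Rps13 to 100% for the 11 families of a single row, with a median of 21.2%.

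Levels between genes were compared as CPM per kilobase of transcript, over all 11 libraries. The highest row was Rplp1 at 748 CPM per kilobase, followed by Rps15 (465) and Rpl41 (426), which encodes a very short basic peptide of the large subunit. The lowest rows were Rps12 (0.0645), Rps13 (0.723) and Rpl24 (3.87). These lowest rows are among the members with the smallest shares of their family's counts. Across the 84 members, the share of words of their own and the level per kilobase had a Spearman rho of 0.149, given as a description over genes from the same libraries.

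AC-T against saline asks whether expression of the ribosomal proteins differed after chemotherapy. Of 83 members tested, 5 fell and 0 rose (edgeR quasi-likelihood test, Benjamini-Hochberg adjusted p under 0.05 over all genes tested). That is 6.02% of the members, where 3.58% of all genes tested fell, 4.89% rose and 8.47% passed in either direction. The 5 were Rpl9, Rpl10a, Rpl34 and Rpl12 of the large subunit and Rps26 of the small subunit. At an unadjusted p under 0.05 there were 8 members, all lower, where 24.9% of all genes had such a p. DESeq2 called 7, where it called 18.1% of the genes to which it gave an adjusted p. The groups did not overlap, with AC-T lower, for 4 members (Rpl9, Rpl10a, Rpl12 and Rps26), against 3.1% of all genes.

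Rpl9, a protein near the factor binding site of the large subunit, had the smallest p. Its values in saline were 7.20 CPM at the lowest, 7.28 at the median and 7.48 at the highest, and after AC-T 5.90, 5.64, 6.09, 6.32 and 5.63 CPM (mice 501, 502, 503, 600 and 602). Every AC-T library lay below every saline library, and the saline values lay close together. The log2 fold change was -0.31 ± 0.052 (SE; adjusted p = 0.00737), or 0.809-fold.

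Rpl10a forms part of the stalk beside which deacylated tRNA leaves the ribosome. It stood at 20.7, 21.7 and 22.3 CPM in saline (lowest, median, highest) and at 18.5, 16.8, 18.7, 19.2 and 17.6 CPM after AC-T in the same order of mice, again without overlap. The log2 fold change was -0.25 ± 0.043 (SE; adjusted p = 0.00822). Rpl9 and Rpl10a kept the call when any 1 library was left out, but not without AC-T series 5 (adjusted p = 0.0642 and 0.0728 in edgeR). With series as a random effect in limma-voom, Rpl10a (adjusted p = 0.0547), Rpl34, Rpl12 and Rps26 lost the call, and Rpl9 was the 1 that passed.

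Rpl12, at the base of the factor-recruiting stalk, stood at 9.004, 9.64 and 10.6 CPM in saline and at 8.57, 7.72, 8.65, 8.69 and 8.13 CPM after AC-T. The groups were close but did not overlap, and the log2 fold change was -0.22 ± 0.057 (SE; adjusted p = 0.0366). Rps26, which lines the channel where mRNA leaves the small subunit, stood at 29.4, 31.5 and 34.3 CPM in saline and at 28.2, 29.3, 28.5, 26.9 and 25.8 CPM after AC-T. Its highest AC-T library, 502, lay just under the lowest saline library, and the log2 fold change was -0.19 ± 0.051 (SE; adjusted p = 0.0391).

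Rpl34, another large subunit protein, had the largest fitted change of the 5. It stood at 12.7, 14.1 and 15.3 CPM in saline and at 12.4, 10.4, 13.1, 9.98 and 9.57 CPM after AC-T, so that AC-T 503 reached into the saline range. The log2 fold change was -0.34 ± 0.087 (SE; adjusted p = 0.0337). Rpl12 and Rps26 each lost the call in 9 of 11 fits without 1 library and Rpl34 in 7, with adjusted p of at most 0.0872 (Rpl12, without AC-T 502), 0.0931 (Rps26, without AC-T 602) and 0.0882 (Rpl34, without AC-T 502). With the thalamic marker score as a covariate none of the 5 passed. The score did not overlap between groups (4.11 to 4.87 after AC-T, 5.14 to 6.47 in saline), so that fit cannot tell it apart from treatment. Fitted log2 fold changes there were -0.37 (Rpl9), -0.28 (Rpl10a), -0.34 (Rpl12), -0.36 (Rps26) and -0.25 (Rpl34).

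The 5 rows are small parts of their families: 1.63% of the counts for Rpl9, 12.9% for Rpl10a, 16.1% for Rpl34, 4.27% for Rpl12 and 33.3% for Rps26. With each member's counts added to those of its copies (an analysis added after seeing the data), 0 of 81 families passed, where 8.58% of all rows of that table passed in either direction. At an unadjusted p under 0.05 there were 4 families (Rps18, Rps26, Rpl27 and Rpl38), and the smallest adjusted p was 0.168. The Rpl9 family stood at 361, 429 and 471 CPM in saline (lowest, median, highest) and at 477, 361, 477, 342 and 303 CPM after AC-T, with a log2 fold change of -0.10 ± 0.128 (SE). Here AC-T 501 and 503 lay above all saline libraries, where the Rpl9 row alone had them below. The other families had log2 fold changes of -0.10 (Rpl10a), -0.19 (Rpl34), -0.05 (Rpl12) and -0.11 (Rps26), and in each the groups overlapped.

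**Figure D2:**
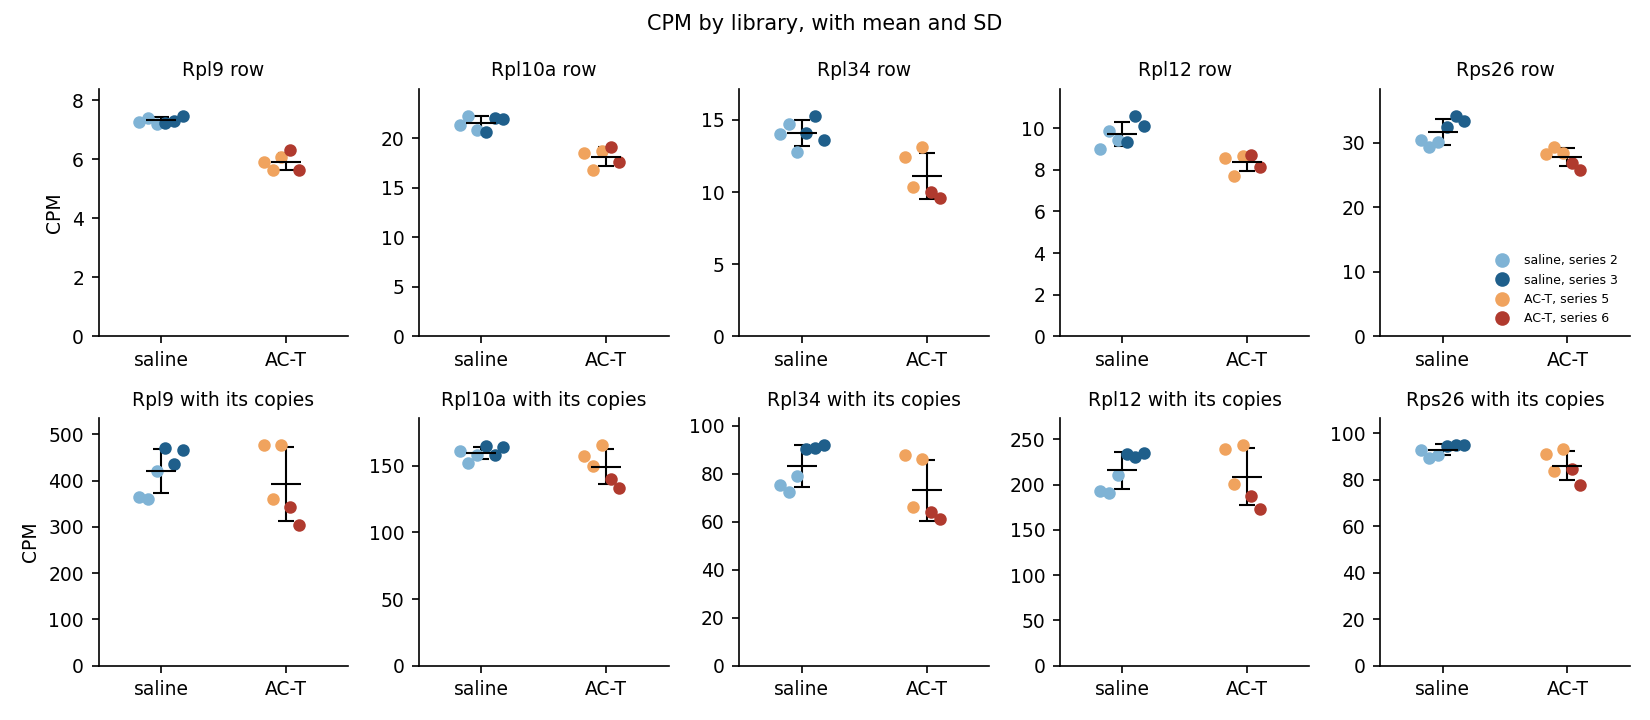
CPM by library (y axis) for the 5 members past the threshold, as the single row (upper panels) and summed with their copies (lower panels); points are libraries coloured by series, bars are mean and SD. The single rows of Rpl9, Rpl10a, Rpl12 and Rps26 do not overlap between groups, and all 5 family sums do.

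The other 78 members tested did not pass. Fitted values lay below 0 for 75 of the 83 members (90.4%), where 50.6% of all genes tested lay below 0. The median log2 fold change was -0.08 over the members and 0.00 over all genes, and the middle 50% of the members lay between -0.14 and -0.04. Both subunits were alike in this: 44 of 48 large subunit genes and 31 of 35 small subunit genes were below 0, with medians of -0.08 and -0.08. The median SE of a member was 0.081, so the typical difference was as large as its error. The median stayed below 0 under the 4 other scalings, at -0.08 to -0.11, and was 0.04 with the share of mitochondrially encoded counts as a covariate. Without saline series 3 it was -0.02, with 53 of 83 members below 0, and without AC-T series 6 42 members were below 0.

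**Figure D3:**
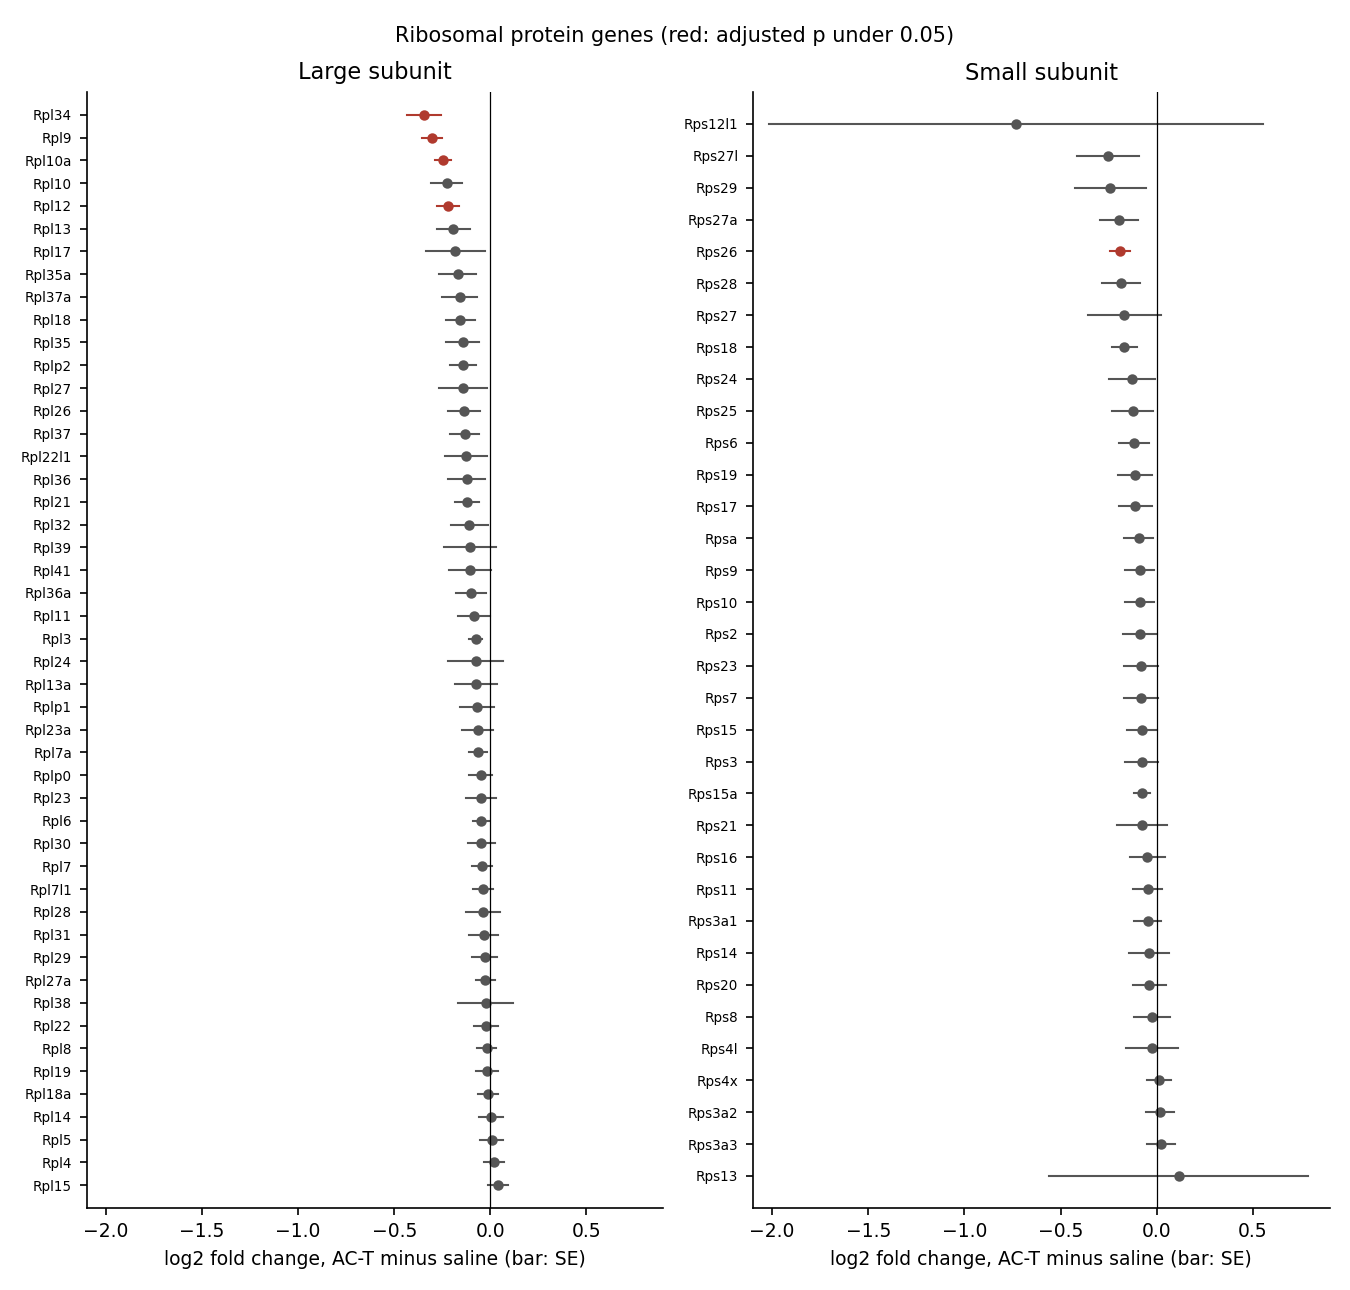
Log2 fold change, AC-T minus saline, with its SE (x axis) for the large and small subunit genes tested, ordered by value, with 1 small subunit gene not drawn; red marks the 5 genes with adjusted p under 0.05. Most points lie left of 0 in both panels, and Rps12l1 and Rps13 have the widest errors.

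The stalk proteins Rplp0, Rplp1 and Rplp2, which recruit the elongation factors, did not pass. Rplp1 stood at 381 ± 34.0 CPM in saline (SD, n = 6) and 363 ± 46.0 after AC-T (SD, n = 5), with a log2 fold change of -0.07 ± 0.088 (SE). Rplp0 had -0.05 ± 0.061 and Rplp2 -0.14 ± 0.068, the latter with adjusted p = 0.215. AC-T 501 and 503 were the highest AC-T libraries for each of the 3.

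Rps6, the small subunit protein phosphorylated by the S6 kinases under mTORC1, had 21.7 ± 2.31 CPM in saline and 20.02 ± 1.56 after AC-T (log2 -0.12 ± 0.077 SE; adjusted p = 0.384). Rpsa, also known as the laminin receptor precursor, had 170 ± 10.4 and 159 ± 19.0 CPM (log2 -0.09 ± 0.075 SE). Rpl5 and Rpl11, which outside the ribosome bind Mdm2 and so stabilise p53, had log2 fold changes of 0.01 ± 0.060 and -0.09 ± 0.085 (SE), with adjusted p of 0.959 and 0.593. The groups overlapped for all 4 genes. The rows held 7.16% (Rps6), 41.8% (Rpsa), 8.15% (Rpl5) and 2.67% (Rpl11) of their family's counts. The family sums had log2 fold changes of -0.08, -0.07, -0.04 and -0.08 in the same order.

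Among members with an average of at least 1 log2 CPM, the highest fitted values were small: 0.04 ± 0.053 (SE) for Rpl15, 0.02 for Rps3a3 and 0.02 for Rpl4. Rpl15 stood at 88.2, 91.5 and 94.5 CPM in saline and at 95.2, 95.2, 107, 86.5 and 86.9 CPM after AC-T. Its AC-T values spread to both sides of the saline range, with series 5 above it and series 6 below. Rps27l, a paralogue of Rps27 known as a p53 target, had the largest negative value that missed the threshold among these, -0.25 ± 0.161 (SE; adjusted p = 0.373). It stood at 12.1 ± 2.77 CPM in saline and 10.2 ± 1.75 after AC-T.

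Paralogue pairs gave no pair in which either gene passed. Rpl22, with 106 ± 8.11 CPM in saline and 105 ± 8.09 after AC-T, and Rpl22l1, with 24.6 ± 1.70 and 22.6 ± 4.33, had log2 fold changes of -0.02 and -0.13. Per kilobase, over all libraries, Rpl22 stood at 223 CPM and Rpl22l1 at 42.9. Rpl7 and Rpl7l1, a nucleolar relative of Rpl7, had -0.04 and -0.04, at 114 and 15.2 CPM per kilobase. Rps4x had 0.01 and Rps4l -0.02, at 121 and 17.4 CPM per kilobase. The tissue-restricted relatives Rpl3l, Rpl10l and Rpl39l were not analysed here; Rpl3, Rpl10 and Rpl39 had -0.08, -0.23 and -0.11, with adjusted p of 0.206, 0.105 and 0.684. Rpl10, which is needed for the subunits to join, had the smallest adjusted p of the members that missed the threshold, and its family had -0.01.

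Next come the 11 members without a copy in the table. Of these Rpl32, Rps4l and Rps9 have annotated copies that are not among the rows analysed (2, 1 and 1). All 11 were below 0, from -0.25 (Rps27l) to -0.02 (Rpl8), with a median of -0.08 and 0 calls in edgeR; the smallest adjusted p was 0.373. Among the 72 tested members with copies the median was also -0.08, and these held all 5 calls. The copies themselves gave 182 tested rows, of which 2 fell (Gm10335 and Gm3362, both copies of Rpl23a), where 3.58% of all genes fell. Of the copy rows 147 lay below 0, where 50.6% of all genes did, and their median was -0.10.

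Members were also compared between mouse series within a treatment. Between saline series 3 and 2, 72 of 83 members were higher in series 3, with a median log2 difference of 0.12 (0.07 for the large and 0.18 for the small subunit). Between AC-T series 6 and 5, 75 of 83 were lower in series 6, with a median of -0.19. Over all genes tested the medians were -0.002 (saline) and 0.005 (AC-T). No member passed in edgeR in either contrast, where 1.03% and 0.117% of all genes passed, and 23 and 38 members had an unadjusted p under 0.05, as did 20.1% and 13.5% of all genes. In 67 members both were seen together, higher in saline series 3 and lower in AC-T series 6. The smallest adjusted p were 0.0768 (Rps2, saline) and 0.0700 (Rpl22l1, AC-T).

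**Figure D4:**
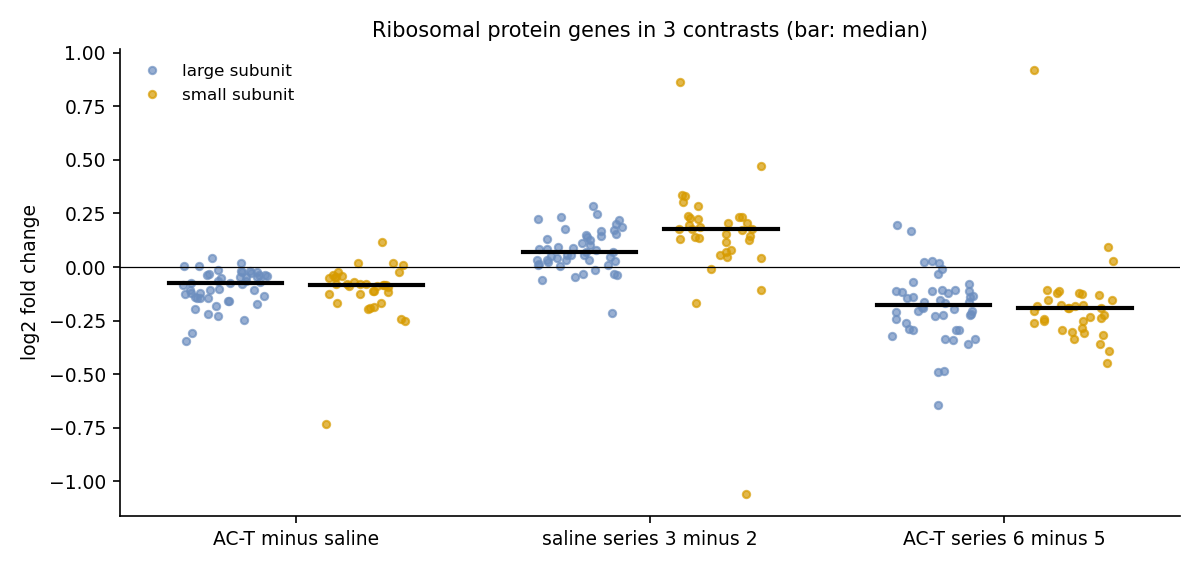
Log2 fold change (y axis) of the members in AC-T against saline and in the contrasts of series within each treatment; points are genes (blue large, orange small subunit), bars are medians. Medians over both subunits are -0.08, 0.12 and -0.19.

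Set against the same 6 saline libraries, which both comparisons share, the AC-T series gave different pictures. For series 5 (mice 501, 502 and 503) 3 of 83 members fell, where 4.06% of all genes fell; the median was 0.00 and 40 members were below 0. For series 6 (mice 600 and 602) 9 members fell, where 3.2% of all genes fell. The members' median was -0.21 and 81 members were below 0. Over all genes tested the medians were 0.001 (series 5) and 0.012 (series 6). Rpl9 and Rpl10a had values near 0 in both contrasts of series (0.01 and 0.02 for Rpl9, 0.00 and 0.03 for Rpl10a), whereas Rpl34 was lower in AC-T series 6 than 5 by -0.29 ± 0.106 (SE; adjusted p = 0.284). Rps26 was 0.15 ± 0.041 (SE) higher in saline series 3 than 2, with adjusted p = 0.0935.

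One library led the low side. AC-T 602 was the lowest of all 11 libraries for 46 of 83 members, AC-T 600 for 12 and saline 202 for 9. The highest library was AC-T 503 for 18 members and saline 300 or 302 for 15 each. For the family sums AC-T 602 was the lowest at 68 of 81. How often each library was lowest or highest over all genes tested was not counted, so these counts cannot be called particular to the members. Without AC-T 602 the median log2 fold change was -0.05, 66 of 83 members were below 0 and 2 members passed.

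As a share of all counts, the members held 0.548 ± 0.0449% after AC-T (SD, n = 5) and 0.580 ± 0.0277% in saline (SD, n = 6). The values in saline were 0.549, 0.586 and 0.621% (lowest, median, highest), and after AC-T 0.595, 0.526, 0.593, 0.530 and 0.494%. AC-T 501 and 503 lay within the saline range, and 502, 600 and 602 below it. The large subunit held 0.294 ± 0.0226% and 0.310 ± 0.0118%, and the small subunit 0.254 ± 0.0223% and 0.270 ± 0.0161%. With the copies added, the share was 1.47 ± 0.130% and 1.56 ± 0.0819%.

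The share of the 13 mitochondrially encoded protein genes moved with it. It was 9.08 ± 1.32% after AC-T and 10.4 ± 0.847% in saline (exact permutation p = 0.0887). By library after AC-T it was 10.05, 8.57, 10.9, 7.98 and 7.91%, so that the same 3 AC-T libraries were low in both measures. In saline it was 9.33 to 9.86% in series 2 and 11.02 to 11.29% in series 3, which had the higher ribosomal protein shares too (0.587 to 0.621% against 0.549 to 0.574%). With this share as a covariate 2 members passed and 34 of 83 were below 0. With libraries scaled without the mitochondrially encoded genes 5 passed and 75 were below 0, as in the fit with them, and the median was -0.08. As a share of the counts that remain without these genes, the members held 0.603 ± 0.0578% after AC-T (SD, n = 5) and 0.647 ± 0.0363% in saline (SD, n = 6).

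**Figure D5:**
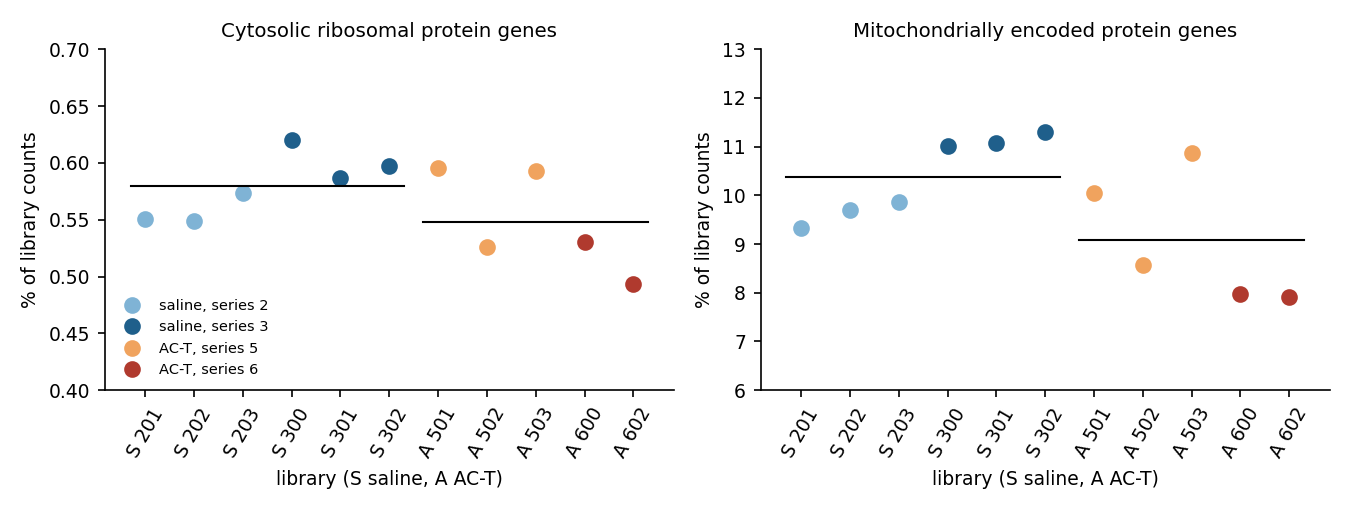
Percentage of library counts (y axis) in the 84 ribosomal protein genes and in the mitochondrially encoded protein genes, for each library (x axis), coloured by series; lines are group means. AC-T 502, 600 and 602 are the lowest AC-T libraries in both panels, and saline series 3 lies above series 2 in both.

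Other parts of the translation machinery were read from lists holding 260 tested genes. Of 44 initiation factors 4 rose and 0 fell, with a median log2 fold change of 0.08, where 4.89% of all genes rose. An unadjusted p under 0.05 was seen for 17, where 24.9% of all genes had one. The 4 that rose were Eif3a, Eif3b and Eif3c, core subunits of the complex that holds the small subunit for initiation, and Eif5b, which joins the subunits. Eif3c went from 132 ± 5.47 CPM in saline to 154 ± 10.97 after AC-T (log2 0.22 ± 0.051 SE; adjusted p = 0.0224), and Eif3b from 65.2 ± 1.51 to 71.04 ± 1.47 (log2 0.12 ± 0.031 SE; adjusted p = 0.0320). Eif3a had 0.15 and Eif5b 0.18.

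Of 92 ribosome biogenesis factors 3 rose and 0 fell, with a median of 0.06. Rrp12, an export factor of the small subunit precursor, had 0.25 ± 0.049 (SE; adjusted p = 0.0131), Nol6 0.22 and Grwd1, a chaperone of Rpl3, 0.24. Of 15 elongation and termination factors, Eif5a2 fell by 0.25 on the log2 scale, and of 25 nascent chain and targeting factors Srp54a rose by 0.20. These 9 of 260 are under the 8.47% of all genes that passed. With the thalamic marker score as a covariate 2 of all genes tested passed, but this score did not overlap between groups.

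In edgeR 0 genes passed among 20 of the RNA polymerase I machinery (4 with an unadjusted p under 0.05), 30 of mTORC1 and TOP control (9) and 19 of ribosome quality control (6). The medians were 0.01, 0.04 and 0.02. The 5 ribosomal protein genes outside the name rule also held 0 calls, with a median of -0.08; among them Fau had -0.10, Rpl36al -0.08, Rps27rt -0.06 and Gnb2l1 -0.05.

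Host genes of small nucleolar RNAs have TOP starts as well. Among 11 tested, 0 passed and 4 had an unadjusted p under 0.05, with a median of -0.13. Snhg20 had -0.35 ± 0.101 (SE; adjusted p = 0.0543), and Gas5, the most abundant, went from 121 ± 10.1 to 111 ± 10.9 CPM (log2 -0.13). All 11 were below 0, where 50.6% of all genes were.

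TOP starts were read from RefSeq promoter windows (GRCm38.p6, 250 bases before to 50 after the annotated start) for the 60 members that matched. The motif sought was a C exactly at the start base followed by at least 4 bases that are each C or T, on the transcribed strand. It was found in 13 of 71 windows of members (18.3%) and in 2.51% of all 32851 windows. Allowing the start to lie up to 5 bases to either side gave 43.7% and 18.3%. Windows of 4 members are shown, the 3 with the longest runs and Rps6, from 30 bases before to 15 from the start, with the run in capitals: Rpl15 at chr14:18270972-18271016 (minus), Rpl35 at chr2:39005117-39005161 (minus), Rps10 at chr17:27635230-27635274 (minus) and Rps6 at chr4:86857353-86857397 (minus).
Rpl15: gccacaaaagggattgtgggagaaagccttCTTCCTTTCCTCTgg
Rpl35: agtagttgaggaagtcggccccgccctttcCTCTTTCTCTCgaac
Rps10: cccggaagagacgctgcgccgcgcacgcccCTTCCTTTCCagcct
Rps6: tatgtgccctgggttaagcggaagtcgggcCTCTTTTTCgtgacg

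The 13 members with the motif at the start base had a median log2 fold change of -0.09, and the 46 tested members with a window but without it -0.09. Over all 319 tested genes with the motif the median was -0.02. None of the 13 members with the motif at the annotated start base was among the 5 that fell, where 18.3% of member windows held it. Only 60 members had a window, and 5 members are too few to read this as a difference. A match describes the letters of the window, and its absence says only that they are not there.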

How the data were processed

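Poly(A) RNA was made into stranded libraries, per the labels' protocols. The submitters' processing notes name Dragen 4.3.6, FastQC 0.11.9, Salmon 1.9.0 and GRCm39; the annotation release is not given in the sources used here. The values the authors deposited are expected counts per gene: Salmon divides a read among the transcripts of its index that it matches, and which copies that index held is not given in the sources used here. They were rounded to whole numbers.

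All 17118 genes entered 1 table, filtered with filterByExpr (minimum count 10), scaled by TMM and fitted with edgeR (version 4.0.16, R 4.3.3; 2-sided quasi-likelihood test, Benjamini-Hochberg adjusted, threshold 0.05). Adjusted p values come from this fit unless another is named. Library measures were compared by exact permutation over 462 splits. Transcripts come from GENCODE vM21 (GRCm38), an older build than the files', matched by gene identifier for all 84 members. The fit was also run on simulated counts, drawn without series effects or reads shared between copies. That run therefore does not test the calls reported here.

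Results for 2 genes are not reported here. Members and lists were chosen with earlier results of these data known. Named members are those past the threshold, the 3 largest changes each way at an average log2 CPM of at least 1, the 3 highest and lowest per kilobase, 8 fixed genes, paralogue pairs, and members at 0 in any library; from each list up to 4 genes past the threshold or up to 2 otherwise.

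Alternatives were other scalings and filters, a robust fit, DESeq2 1.42.0, limma-voom 3.58.1 with or without a series effect, covariates (thalamic score, an sva 3.50.0 variable), unrounded counts, and omission of each library or series. Family sums, a mitochondrial covariate and protein-coding members only were added after seeing the data.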

Additional observations from a re-analysis of the deposited data

Results flagged for a closer look

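Of 66 groups of libraries examined (named members at CPM and 3 library measures, within each treatment), 1 held a library far from the rest. Rpl7l1 stood at 37.7071 CPM in saline 302, below the other 5 saline libraries at 40.2 to 41.1 CPM; the gap was 0.738 of the range, above the limit of 0.625 for 6 values. Chance alone flags about 1 group in 20.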

How the results depend on the processing

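No paired analysis was possible because the labels give AC-T and saline mice no shared replicate numbers. The 5 calls among members depended on the setting: there were 1 with series as a random effect, 0 with the thalamic score as covariate, 2 with a surrogate variable, 2 without series 3, 2 without series 6, 2 with the mitochondrial share as covariate and 0 with families summed. Without 1 library there were 2 to 4. The members' median log2 fold change was -0.2227 without series 5 and reversed to 0.0371 with the mitochondrial covariate; without 1 library it was -0.1232 to -0.0479, without series 6 -0.0006, without series 3 -0.0184 (53 of 83 below 0), without series 2 -0.1447 and with the thalamic score -0.1479. Of all genes, 1301 passed; DESeq2 gave 2559, series as a random effect 293, the thalamic score 2, omission of series 2, 5 or 6 gave 549, 317 and 409, the mitochondrial covariate 619, and omission of 1 library 625 to 1229 (815 without saline 202, 832 without saline 300, 625 without AC-T 502 and 681 without AC-T 602). Translation list calls went from 9 to 5 with library totals alone. The difference in the members' share of counts, -0.0322 percentage points, was -0.0957 with copies added, which is a larger sum. The cause of the other shifts was not tested, and the thalamic score did not overlap between groups. Of 985 refits of named members, 931 kept their side of the threshold and direction, 52 lost a call and 2 gained one.

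Rows with few counts limit precision: Rps12l1 and Rps13 had the widest errors, and Rps12 was not testable. No value here separates series from treatment.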

Other observations

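Copies of Rpl23a, which guides nascent chains at the exit of the ribosomal tunnel, held the 2 calls among copy rows. Gm10335 and Gm3362 fell with adjusted p of 0.0129 and 0.0214 in edgeR, while the Rpl23a family as a sum had a log2 fold change of -0.13 ± 0.062 (SE) and adjusted p = 0.214. The rows named as pseudogenes held 83.3 to 86.4 counts per 100 member counts in every library, a narrow range beside that of the members' share of counts.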
